A study of Mus musculus with 6 samples.

Results

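Genes of the splicing machinery and of the heterogeneous nuclear ribonucleoproteins (hnRNPs) were examined in peritoneal neutrophils of cGAS-/- mice, with and without lipopolysaccharide (LPS). The members were all genes of the expression table whose symbol begins with *Srsf*, *Hnrnp*, *Sf3a*, *Sf3b*, *Snrp* or *Prpf*, without the 3 symbols that carry "-ps". They numbered 53 of the 38739 genes in the table: 9 *Srsf*, 14 *Hnrnp*, 3 *Sf3a*, 5 *Sf3b*, 11 *Snrp* and 11 *Prpf* genes. GENCODE names 52 of them protein-coding and 1, *Snrpert*, a processed pseudogene. A further 14 protein-coding genes with these prefixes, among them *Srsf3*, *Hnrnpa1*, *Snrpd1* and *Sf3b2*, were not analysed here.

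The cells of all 6 samples came from the peritoneum of cGAS knockout mice labelled as strain C57B/L6. According to the study's methods, thioglycolate had been given to draw neutrophils into the cavity before lavage. After 2 h in medium alone (UT, n = 3) or with 500 ng/mL LPS of E. coli 026:B6 (LPS, n = 3), total RNA was taken for stranded mRNA sequencing. This dose is that of the labels, and the methods of the study give a lower one for the sequenced samples. Both groups lack cGAS, the cytosolic sensor that answers double-stranded DNA with the messenger cGAMP, and no wild-type sample entered the comparison. Nothing states whether the samples of a group came from separate mice, so the p-values measure the spread between these samples, which may be technical.

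Introns are removed from pre-mRNA by the spliceosome, which is built from small nuclear ribonucleoproteins (snRNPs). Each of the snRNPs U1, U2, U4 and U5 carries a ring of 7 Sm proteins around its RNA, SF3A and SF3B belong to the U2 snRNP and hold it at the branch site, and most PRPF proteins act in the U4/U6.U5 tri-snRNP or in the activated spliceosome. SR proteins (*Srsf*) mostly bind exonic enhancers and promote the use of nearby splice sites, whereas hnRNPs coat nascent transcripts and often oppose it. In activated myeloid cells these factors process a large wave of new inflammatory transcripts.

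Expression is given as scaled TPM, a length-corrected abundance that the deposited table, judged from its values, holds as a mean over each gene's transcripts after division by a constant for the sample. Levels can be set against each other between samples for 1 gene, but not between genes, because genes differ in the number of transcripts averaged. Fold changes are differences of log2(value + 1), which understate changes of low genes. Read depth is unknown. Values of 3 samples are given in the order of replicates 1, 2 and 3, with UT before LPS. Genes counted as called when limma gave p under 0.01, unadjusted, together with a log2 fold change above 2 or below -2, and adjusted p-values are Benjamini-Hochberg values over all 23049 genes tested.

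The deleted gene *Cgas* stood between 0.0286 and 0.307 in every sample, and with no wild-type sample this does not check the deletion. Protein-coding genes held 21.0 to 28.3% of the summed value in the UT samples and 49.7 to 58.9% in the LPS samples. Correlations of log2 values between samples of 1 group were 0.807 to 0.835 for UT and 0.927 to 0.962 for LPS. Neutrophil markers summed to 10346 to 30104 in UT and 18145 to 57443 in LPS samples, with all 12 above 0, and 1 of them was called lower and 0 higher. B cell markers (6 genes) summed to 142 to 552 and 68.7 to 246, macrophage markers (10 genes, 1 called higher) to 166 to 222 and 294 to 427, and T cell markers (6 genes) to 15.1 to 16.8 and 5.64 to 13.5. Erythroid markers (6 genes) ran from 21.5 to 5629 and from 165 to 4651, mast cell markers (5 genes) from 27.1 to 85.4 and from 83.6 to 135, mesothelial markers (5 genes) from 0.118 to 1.26 and from 0.346 to 1.29, and eosinophil markers (5 genes, with *Epx* at 0 throughout) from 3.10 to 8.52 and from 2.02 to 5.31. In bulk RNA, fewer cells of a type and less RNA per cell cannot be told apart, and the part of these shifts in the results below was not tested.

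Most members had higher values after LPS, but few passed a test. The log2 fold change was above 0 for 40 of the 53 genes and below 0 for 13, with a median of 0.66. Over all genes tested the median was 0.013, over protein-coding genes 0.046, and over the 5894 protein-coding genes with a mean value of 1 or more, a level that 50 of the 53 members reached, 0.37. Above 0 were 7151 of the 12018 protein-coding genes tested and 3824 of those 5894. The members called higher were 3 (5.66%), all of them Sm core genes (*Snrpf*, *Snrpd2* and *Snrpd3*). The share was 1.69% of all genes, 2.4% of protein-coding genes and 4.89% of those with a mean of 1 or more, so it was near this last background. The number called lower was 0 by limma, beside 1.31% of all genes and 0.366% of protein-coding genes. At an unadjusted p under 0.05, 11 members were higher (20.8%), against 10.3% of all genes, 14.1% of protein-coding genes and 20.5% of those with a mean of 1 or more. The members lower at that p were 2 (3.77%), against 6.66%, 5.17% and 7.48%.

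With a limit of 0.05 on the adjusted p and none on the fold, 1 member was higher (*Snrpd2*) and 1 was lower (*Prpf18*). Of all genes, 0.894% were higher and 0.946% lower by this rule, and of protein-coding genes 1.25% and 0.349%. Every LPS sample lay above every UT sample for 16 members (30.2%), against 13.1% of all genes, 18.6% of protein-coding genes and 24.6% of the protein-coding genes with a mean of 1 or more. The reverse held for 3 members (5.66%), against 9.75% of all genes, 8.44% of protein-coding genes and 9.89% of those with a mean of 1 or more. Read against protein-coding genes with a mean of 1 or more, the number of members that separated upward was therefore near the background. That set has a floor on the mean and was not matched to the members by level.

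**Figure D1:**
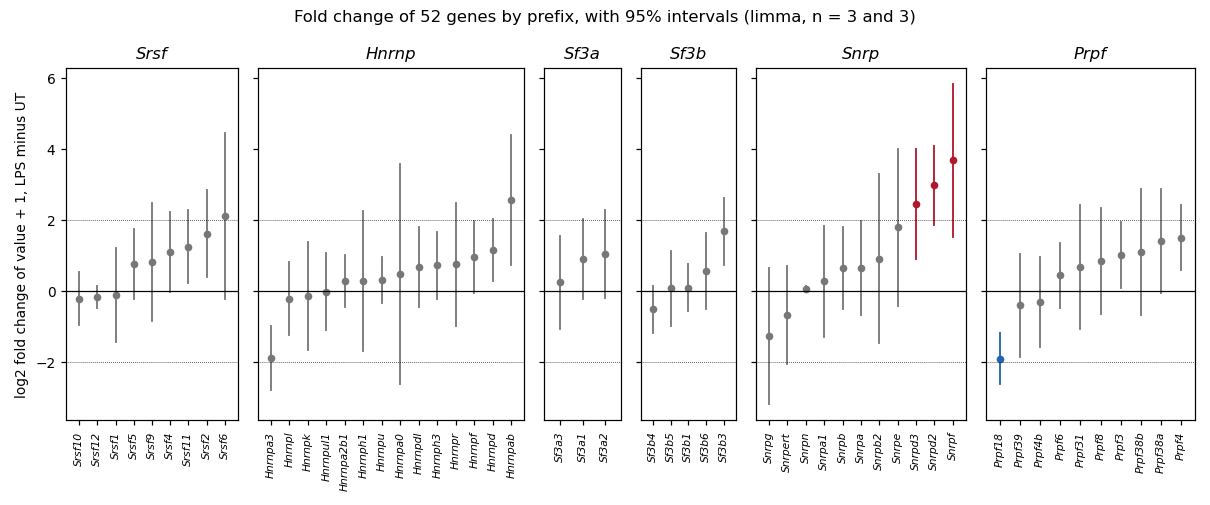
Log2 fold change of value + 1 (LPS minus UT) for 52 of the 53 genes, in a panel per prefix and ordered by size; points are limma estimates, lines 95% intervals, and dotted lines mark 2 and -2. *Snrpd3*, *Snrpd2* and *Snrpf* (red, called higher) reached 2.44, 2.97 and 3.68, and *Prpf18* (blue, adjusted p under 0.05) lay at -1.91.

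How far the list lay above 0 depended on the scale on which the samples were compared. Summed over the 53 genes, the scaled TPM were 768, 844 and 1039 in the UT samples and 1185, 828 and 1085 in the LPS samples. As a percentage of the summed value of protein-coding genes, the members made up 0.513, 0.452 and 0.730% in UT and 0.585, 0.302 and 0.533% in LPS samples, so the groups overlapped on both scales. These sums join genes whose values average different numbers of transcripts. *Hnrnpa0*, with 1 transcript in GENCODE, held 10.6, 241 and 322 of the UT sums and 141, 113 and 145 of the LPS sums. The percentages were not recomputed without it. When each sample was rescaled to the same protein-coding sum, 31 members lay above 0 and 22 below, the median was 0.27 in place of 0.66, and 1 member was called higher (*Snrpd2*) and 2 lower (*Prpf18* and *Hnrnpa3*). On that scale the median of all genes was -0.043.

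**Figure D2:**
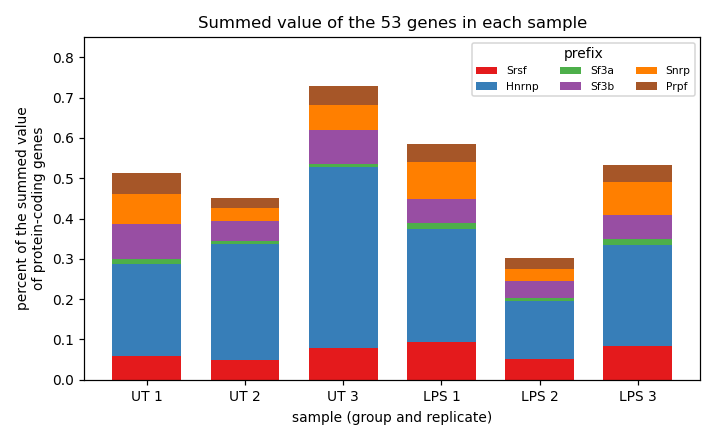
Summed scaled TPM of the 53 genes as a percentage of the summed value of protein-coding genes in each of the 6 samples, stacked by prefix. UT 3 stood highest at 0.730% and LPS 2 lowest at 0.302%, and the UT and LPS samples overlapped. *Hnrnpa0* alone held 322 of the 1039 scaled TPM summed in UT 3.

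The UT samples disagreed with each other far more than the LPS samples did. Among the 50 members with a mean of 1 or more, the highest UT sample exceeded the lowest by more than 5-fold for 21 genes, whereas the highest LPS sample exceeded the lowest by more than 3-fold for 0 genes. Over protein-coding genes with a mean of 1 or more, 47.4% varied more than 5-fold among UT samples and 12.3% more than 3-fold among LPS samples. The SD of log2(value + 1) was larger in UT than in LPS for 45 of the 53 members (84.9%), close to the 82.7% of protein-coding genes with a mean of 1 or more. Its median over the members was 0.80 in UT and 0.31 in LPS.

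The 95% interval of the log2 fold change reached 2 for 24 members and -2 for 5, and lay wholly between -1 and 1 for 5 members. These 5 include *Snrpn* (-0.051 to 0.12) and *Srsf12* (-0.50 to 0.12), whose values lay near the floor, where log2(value + 1) understates changes. *Sf3b1*, the SF3B subunit that contacts the branch site, was one of the well resolved genes, with an interval of -0.58 to 0.75. *Hnrnpu*, a chromatin-associated hnRNP, had an interval of -0.36 to 0.94. At the other end, *Hnrnpa0* had an interval of -2.64 to 3.56.

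**Figure D3:**
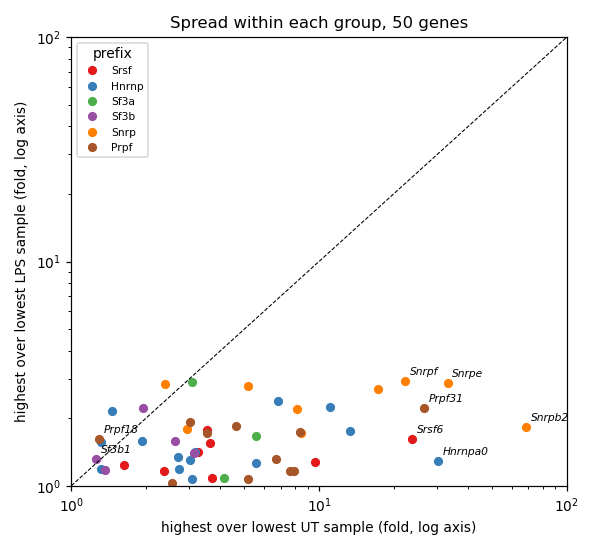
Highest over lowest sample within UT (x axis) and within LPS (y axis), as fold on log axes, for the 50 genes with a mean of 1 or more, coloured by prefix; the dashed line marks equal spread. Along the x axis genes reached 68.7-fold (*Snrpb2*), whereas along the y axis none exceeded 2.92-fold (*Snrpf*).

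The second LPS replicate stood low. Of the 53 members, 37 had their lowest LPS value in LPS 2 and 5 their highest. LPS 2 lay below the mean of the other LPS samples by a median log2 difference of -0.49 over the members and -0.022 over protein-coding genes with a mean of 1 or more. UT 2 was mixed: 25 members had their lowest UT value there and 15 their highest, its median log2 difference was -0.41 over the members and -0.12 over those protein-coding genes, and its median level over the members (7.54) was above those of UT 1 (7.05) and UT 3 (6.82). The second replicates had the highest neutrophil marker sums of their groups (30104 in UT 2 and 57443 in LPS 2) and the lowest B cell marker sums (142 and 68.7). The part of this difference in the results was not tested.

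The *Snrp* genes encode the Sm ring and the proteins particular to U1 and U2, and they held the largest changes. Of the 11, 9 lay above 0 and 2 below, with a median of 0.64. The Sm ring was covered by 6 genes, *Snrpb*, *Snrpd2*, *Snrpd3*, *Snrpe*, *Snrpf* and *Snrpg*, with a median of 2.11 and 5 of the 6 above 0. The median of protein-coding genes with a mean of 1 or more was 0.37. With pseudogene copies added, as described below, *Snrpd2* fell to 0.22 and *Snrpf* to 2.68. The ring median was not recomputed with copies added. The 3 called members all came from this ring, and their promoters are shown here together with that of *Snrpg*, the ring gene that lay below 0. The sequences are the 250 bases before the transcription start from RefSeq (GRCm38.p6), 5′ to 3′ on the strand of the gene. Capitals mark matches on either strand to the box CCAAT, to the GC box, which reads GGGCGG, or to the ETS core, which reads CCGGAA.
Snrpd2 promoter: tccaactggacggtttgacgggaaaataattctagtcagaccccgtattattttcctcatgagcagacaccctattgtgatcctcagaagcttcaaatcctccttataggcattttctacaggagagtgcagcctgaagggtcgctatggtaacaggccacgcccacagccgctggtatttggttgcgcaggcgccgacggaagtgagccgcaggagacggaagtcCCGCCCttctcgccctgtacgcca
Snrpd3 promoter: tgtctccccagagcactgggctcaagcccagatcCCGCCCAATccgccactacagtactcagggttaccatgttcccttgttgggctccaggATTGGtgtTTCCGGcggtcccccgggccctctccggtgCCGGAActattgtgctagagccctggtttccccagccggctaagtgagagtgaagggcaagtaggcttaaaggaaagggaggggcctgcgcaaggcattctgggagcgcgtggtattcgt
Snrpf promoter: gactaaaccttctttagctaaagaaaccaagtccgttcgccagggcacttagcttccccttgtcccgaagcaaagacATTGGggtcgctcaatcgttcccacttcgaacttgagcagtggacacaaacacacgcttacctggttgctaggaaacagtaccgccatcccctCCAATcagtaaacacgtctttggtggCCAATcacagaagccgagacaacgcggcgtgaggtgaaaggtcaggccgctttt
Snrpg promoter: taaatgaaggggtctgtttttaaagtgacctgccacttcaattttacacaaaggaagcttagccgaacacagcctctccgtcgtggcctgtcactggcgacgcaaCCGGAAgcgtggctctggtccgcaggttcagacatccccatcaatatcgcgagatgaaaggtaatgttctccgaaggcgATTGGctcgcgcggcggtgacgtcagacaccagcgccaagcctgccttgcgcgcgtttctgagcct

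These windows lie at chr7:19149588-19149837 (plus strand) for *Snrpd2*, chr10:75517792-75518041 (plus) for *Snrpd3*, chr10:93589659-93589908 (minus) for *Snrpf* and chr6:86371290-86371539 (plus) for *Snrpg*. *Snrpd2* had 1 GC box, *Snrpd3* had 2 CCAAT boxes, 2 ETS cores and 1 GC box that overlaps a CCAAT box, *Snrpf* had 3 CCAAT boxes, and *Snrpg* had 1 CCAAT box and 1 ETS core. RefSeq promoters were matched for 47 of the 53 members (64 promoters). In windows of 250 bases before to 50 after the start, 32 of the members' 64 promoters held the ETS core CCGGAA against 14.9% of all 32851 promoters, and 45 of the 64 (70.3%) held the GC box GGGCGG against 35.7%. The CCAAT box was in 40.6% against 37.4%, the E-box CACGTG in 12.5% against 7.15% and the TATA box TATAAA in 7.81% against 13.6%. The consensus of NF-kB, the factor that LPS activates through TLR4, was in 6.25% against 8.46%, and the AP-1 motif TGANTCA in 1.56% against 7.81%. These are matches of letters on either strand, and they were not compared with protein-coding promoters alone or with other housekeeping genes.

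*Snrpf*, which encodes the ring protein SmF, had the largest fold change of the members. Its scaled TPM were 0.454, 0.657 and 10.1 in UT 1, 2 and 3 and 60.7, 20.8 and 40.7 in LPS 1, 2 and 3. All LPS samples lay above all UT samples, with UT 3 apart from the other UT samples. On the log2 scale the difference was 3.68 ± 0.88 (SE), with an unadjusted p of 0.00579 and an adjusted p of 0.103 in limma. The call was lost on leaving out any one of the samples except UT 3, with unadjusted p-values of 0.011 to 0.023. The gene lies on chromosome 10 of GRCm39, from 93418609 to 93425568 on the minus strand.

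*Snrpd2*, the gene of SmD2, was higher by both rules. UT values were 1.02, 0.812 and 0.428 and LPS values 16.5, 6.42 and 18.2, so each LPS sample was several times above the highest UT sample. This was a log2 fold change of 2.97 ± 0.46 (SE) with an adjusted p of 0.0416 in limma, and its 95% interval was 1.85 to 4.08. Without any one sample it remained called, at log2 fold changes of 2.72 to 3.40, although the adjusted p then lay between 0.0634 and 0.174. Over all 17 alternatives the adjusted p ran from 0.0134 to 0.868. The gene spans 18880939 to 18887467 on the plus strand of chromosome 7 (GRCm39).

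*Snrpd3*, which encodes SmD3, had UT values of 1.19, 10.0 and 2.92 and LPS values of 30.5, 17.8 and 24.6. The groups did not overlap, and UT 2 was the UT sample nearest to the LPS samples. The difference was 2.44 ± 0.63 (SE) on the log2 scale, with an unadjusted p of 0.00812 and an adjusted p of 0.116 in limma. Leaving out any one sample other than UT 2 took the unadjusted p to 0.0174 to 0.0316 and ended the call. *Snrpd3* occupies 75353380 to 75373229 on the plus strand of chromosome 10 (GRCm39) and shares no near-identical stretch with another gene on its own strand.

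The other ring genes were not called. *Snrpe* (SmE) had UT values of 0.412, 13.6 and 2.97 and LPS values of 20.0, 6.94 and 19.1, where UT 2 lay within the LPS range. Its log2 fold change was 1.78 ± 0.91 (SE), with an adjusted p of 0.379 in limma. *Snrpb*, which yields SmB and SmB′, went from 10.3, 7.44 and 21.8 to 21.6, 13.5 and 24.2, a log2 difference of 0.64 ± 0.47 (SE) with overlapping groups. *Snrpg* (SmG) lay on the other side of 0, with UT values of 82.2, 10.1 and 40.6 and LPS values of 16.0, 7.69 and 16.9. UT 2 again lay within the LPS range, and the difference of -1.28 ± 0.78 (SE) had an adjusted p of 0.470 in limma. Without UT 2 the difference of *Snrpg* became -2.09 and it was called lower.

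**Figure D4:**
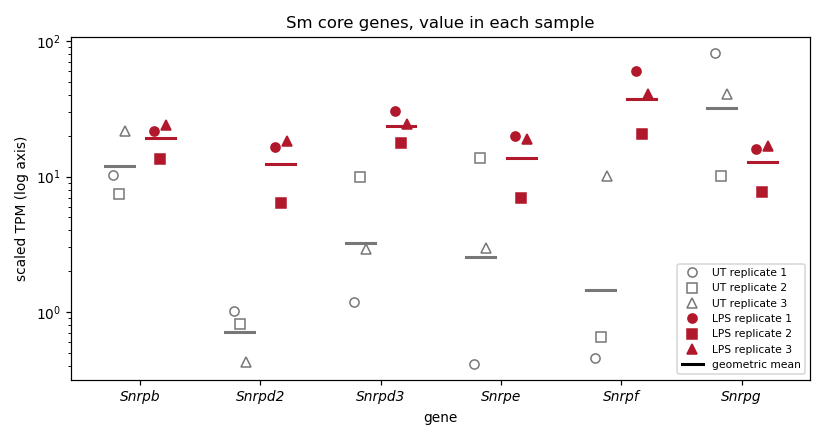
Scaled TPM on a log axis of the 6 Sm core genes in each sample, with UT as open grey and LPS as filled red symbols, a symbol shape per replicate number and bars at the geometric mean of each group. The groups were separate for *Snrpd2*, *Snrpd3* and *Snrpf*, whereas UT samples reached into the LPS range for *Snrpb*, *Snrpe* and *Snrpg*.

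Proteins particular to single snRNPs showed smaller differences. *Snrpa*, of the U1 snRNP, had a log2 fold change of 0.64 ± 0.55 (SE), and *Snrpa1*, of the U2 snRNP, one of 0.27 ± 0.64. *Snrpb2*, also of the U2 snRNP, varied 68.7-fold among the UT samples (5.83, 18.0 and 0.262) and lay at 11.5, 6.26 and 10.8 after LPS. *Snrpn*, the brain-enriched relative of *Snrpb*, was listed at 0 in 5 of the 6 samples and at 0.0708 in LPS 3. *Snrpert*, the pseudogene near-identical to *Snrpe*, was at 3.16 in UT 1 and at 0 elsewhere. Without it the 52 protein-coding members had a median of 0.67.

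Several of these genes have near-identical copies, and reads can be split between them in ways the files do not show. A stretch of at least 150 bases at 95% identity or more with another gene on the same strand was found for 22 of the 53 members, and 13 had none on either strand. For 14 members, 46 pseudogene copies were in the table and 37 of them were tested. Of these, 26 lay below 0 and 11 above, 3 were called lower and 0 higher, and their median was -0.15. Of all 23049 genes tested, 10849 lay below 0, and 389 (1.69%) were called higher and 301 (1.31%) lower. Only 44 of those 301 were protein-coding. No share was computed over pseudogenes alone. The 31 members without a same-strand near-identical gene had a median of 0.72, with 1 called higher (*Snrpd3*), and the 22 members with one had a median of 0.54.

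The *Snrpd2* copy *Gm10120* was high where its parent was low. It stood at 4.32, 7.84 and 24.5 in the UT samples and listed at 0 in all LPS samples, whereas *Snrpd2* was near 1 or under it in UT and above 6 in LPS. When copies were added to their parents, an alternative chosen after seeing the data, *Snrpd2* stood at 5.34, 8.66 and 24.9 in UT and 16.5, 6.42 and 18.2 in LPS, its groups overlapped, and its log2 fold change was 0.22. With each copy weighted by its number of GENCODE transcripts relative to the parent's, it was 2.01 with an adjusted p of 0.106 in limma and the call was kept. The annotation release behind the averaging is not given in the sources used here, so neither sum is exact.

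The *Snrpf* copy *Gm13092* was at 6.01, 6.76 and 56.5 in UT and 154, 37.6 and 45.4 in LPS samples, which overlapped. With it added, *Snrpf* had a log2 fold change of 2.68, or of 3.19 with the transcript weights, and was not called either way. For *Hnrnpa3*, 24 copies in the table summed to 184, 141 and 167 in UT and 189, 95.4 and 124 in LPS samples. For *Hnrnpf* the copies went from 3.04, 41.5 and 97.3 to 2.25, 2.13 and 2.77, while the gene itself, not called, was at 19.4, 39.6 and 14.5 in UT and 48.5, 43.1 and 40.8 in LPS samples. Of the genes with "-ps" left out of the list, *Srsf3-ps* lay at 246, 191 and 250 in UT and at 130, 56.7 and 114 in LPS samples (adjusted p = 0.178 in limma).

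**Figure D5:**
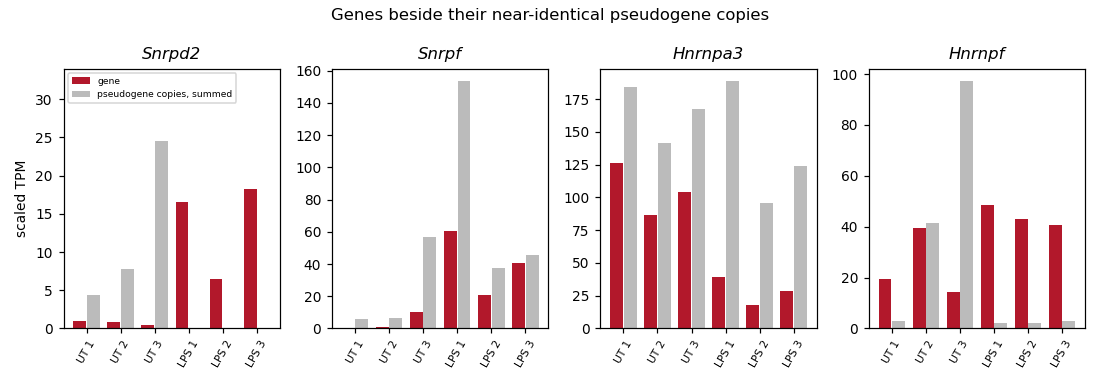
Scaled TPM of *Snrpd2*, *Snrpf*, *Hnrnpa3* and *Hnrnpf* (red) and the summed scaled TPM of their near-identical same-strand pseudogene copies in the table (grey) in each sample, with a linear axis from 0 in every panel. The *Snrpd2* copies were at 0 in all LPS samples, and the *Hnrnpf* copies lay between 2.13 and 2.77 there.

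The SR protein genes had 0 called by limma, and 2 of the 9 (22.2%) were higher at an unadjusted p under 0.05, near the 20.5% of protein-coding genes with a mean of 1 or more. Of the 9 *Srsf* genes, 6 lay above 0 and 3 below, with a median of 0.80, and all 9 varied more among UT than among LPS samples. *Srsf2* (SC35), a founding member of the SR family, had UT values of 6.74, 16.9 and 24.4 and LPS values of 54.8, 35.5 and 47.0. The LPS samples lay above all UT samples, and the log2 fold change was 1.60 ± 0.50 (SE) with an adjusted p of 0.178 in limma. *Srsf11*, which occurs in U1-associated complexes, separated as well (4.43, 7.54 and 2.32 against 13.8, 9.67 and 11.9), with a difference of 1.24 ± 0.42 (SE) and an adjusted p of 0.211 in limma.

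*Srsf6* had the largest *Srsf* fold change but was not called. Its UT values were 1.02, 2.16 and 24.2 and its LPS values 26.8, 16.6 and 25.3, so that UT 3 alone lay inside the LPS range. In limma it had a log2 fold change of 2.11 ± 0.96 (SE), an unadjusted p of 0.0697 and an adjusted p of 0.329. Without UT 3 it became 3.22 and was called. *Srsf5* and *Srsf4* each had 3 LPS samples above 3 UT samples: *Srsf5* lay at 31.2, 13.2 and 30.3 in UT and 43.2, 39.7 and 37.2 in LPS, and *Srsf4* at 10.1, 3.77 and 2.74 and 11.7, 11.7 and 10.9. Their log2 differences were 0.76 ± 0.40 and 1.09 ± 0.46 (SE).

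The remaining *Srsf* genes stayed near 0 or were too variable to place. *Srsf1*, the widely studied SR protein SF2/ASF, had a difference of -0.13 ± 0.54 with UT 2 far above the others (10.9, 38.5 and 13.7 in UT, 20.0, 11.2 and 19.7 in LPS). *Srsf10*, which represses splicing when dephosphorylated, was resolved more tightly, at 11.3, 7.64 and 12.4 and 9.54, 8.53 and 7.74 and an interval of -0.98 to 0.51. Its same-strand copies went from 4.75, 25.7 and 14.2 in UT to 0 in all LPS samples. *Srsf9* had an interval of -0.87 to 2.47. *Srsf12* was under 0.4 in every sample, at 0.393, 0.221 and 0.0539 in UT and 0.0150, 0 and 0.188 in LPS.

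The *Hnrnp* genes split in both directions. Of the 14, 10 lay above 0 and 4 below, with a median of 0.38, and 0 were called. At an unadjusted p under 0.05 in limma, 2 (14.3%) were higher and 1 (7.14%) lower. The shares were 14.1% and 5.17% of protein-coding genes, and 20.5% and 7.48% of those with a mean of 1 or more. These counts were therefore near the background. *Hnrnpab*, whose product binds AU-rich RNA and single-stranded DNA, stood at 21.9, 4.06 and 27.7 in UT and 122, 51.2 and 105 in LPS samples. Every LPS sample lay above every UT sample, with UT 2 far below the rest. The log2 fold change of 2.56 ± 0.75 (SE) passed the fold limit but not the p limit (unadjusted p = 0.0139, adjusted p = 0.152 in limma).

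*Hnrnpd* (AUF1), which binds AU-rich elements of cytokine mRNAs and promotes their decay, had UT values of 10.1, 8.33 and 16.1 and LPS values of 31.9, 20.2 and 26.1. The groups were separate at a log2 fold change of 1.14 ± 0.36 (SE) and an adjusted p of 0.177 in limma. Its relative *Hnrnpdl* went from 18.0, 7.79 and 24.7 to 29.8, 21.0 and 24.6, where UT 3 lay among the LPS samples. *Hnrnph3* and *Hnrnpf*, both of the hnRNP H/F family that binds G-rich RNA, were separate by narrow margins. *Hnrnph3* had 5.43 as its highest UT and 5.66 as its lowest LPS value, and *Hnrnpf* had 39.6 and 40.8.

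*Hnrnpa3*, an hnRNP A/B protein, went the other way. Its scaled TPM were 127, 86.4 and 104 in UT and 39.1, 18.2 and 28.4 in LPS samples, with every LPS sample below every UT sample. The log2 fold change was -1.90 ± 0.37 (SE), with an unadjusted p of 0.00209 and an adjusted p of 0.0668 in limma. The fold was just short of the limit. It was called lower without LPS 1 (-2.15) and without UT 2 (-2.04), and on the protein-coding scale (-2.39). With its 24 copies added it was -0.76, with an adjusted p of 0.336 in limma. With the copies weighted by transcripts it was -1.58, with an adjusted p of 0.0936.

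Other A/B proteins behaved differently in these samples. *Hnrnpa2b1* was steady, at 38.9, 29.4 and 35.1 in UT and 51.6, 33.1 and 42.7 in LPS, with a log2 interval of -0.45 to 1.01. *Hnrnpa0* was at 10.6, 241 and 322 in UT and 141, 113 and 145 in LPS, so UT 1 lay an order of magnitude below the other UT samples. Its log2 fold change of 0.46 ± 1.27 (SE) turned to -1.07 without UT 1. *Hnrnpk*, a poly(C)-binding hnRNP, was at 7.91, 43.9 and 12.5 and 13.6, 17.1 and 13.9, and *Hnrnpl*, which binds CA repeats, at 5.82, 15.7 and 6.92 and 8.21, 6.09 and 7.67; in both genes UT 2 was the highest of the 6 samples. *Hnrnpul1*, an hnRNP U-like protein, had an interval of -1.12 to 1.05, and *Hnrnpr* and *Hnrnph1* varied 11.1-fold and 13.3-fold among UT samples.

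Of the U2 components SF3A and SF3B, 0 genes were called by limma, and 1 of the 8 was higher at an unadjusted p under 0.05. At that p, 14.1% of protein-coding genes were higher, and 20.5% of those with a mean of 1 or more. The count was therefore not above the background. All 3 *Sf3a* genes lay above 0, with a median of 0.89, and of the 5 *Sf3b* genes 4 lay above and 1 below, with a median of 0.085. *Sf3b3*, the member of them with the largest difference, encodes an SF3B scaffold subunit and had UT values of 0.885, 1.73 and 1.66 and LPS values of 8.76, 3.96 and 8.03. The groups were separate, and the log2 fold change was 1.67 ± 0.39 (SE) with an unadjusted p of 0.00507 and an adjusted p of 0.0970 in limma. Its p passed the limit of the call and its fold did not.

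*Sf3b1* itself lay at 54.7, 43.4 and 52.7 in UT and 46.6, 61.2 and 52.3 in LPS samples, fully overlapping. *Sf3b4*, which contacts pre-mRNA near the branch site, had 33.8, 27.7 and 37.9 in UT and 24.1, 23.1 and 20.5 in LPS samples. All LPS samples were lower, by a log2 difference of -0.53 ± 0.27 (SE), with an adjusted p of 0.383 in limma. *Sf3b6*, which sits at the branch-point adenosine, was at 31.1, 11.9 and 26.1 and 38.1, 24.2 and 34.6, with an interval of -0.52 to 1.62. *Sf3b5*, a small SF3B subunit, had an interval of -0.99 to 1.11. The 5 *Sf3b* genes summed to 127, 92.9 and 121 in UT and 123, 117 and 122 in LPS samples, and the groups overlapped.

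Among the *Sf3a* genes, *Sf3a2* was separate, with 9.87, 11.5 and 2.78 in UT and 15.8, 14.6 and 15.6 in LPS samples. The log2 difference was 1.03 ± 0.51 (SE), with an adjusted p of 0.368 in limma. *Sf3a1* overlapped, at 1.06, 0.605 and 3.36 and 4.20, 2.53 and 4.02. *Sf3a3* lay at 7.75, 2.53 and 6.24 and 8.44, 2.97 and 8.61, where the second replicate was the lowest of both groups, and its difference of 0.23 ± 0.54 (SE) was near 0.

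The *Prpf* genes included the one member lower at an adjusted p under 0.05. Of the 11, 8 lay above 0 and 3 below, with a median of 0.83. *Prpf18*, a factor of the second catalytic step, had scaled TPM of 10.8, 14.0 and 13.5 in UT and 2.15, 2.40 and 3.46 in LPS samples. Both groups were tight and far apart. The log2 fold change was -1.91 ± 0.30 (SE), with an adjusted p of 0.0429 in limma and an interval of -2.64 to -1.18. *Prpf18* has no near-identical gene on either strand and spans 4626850 to 4656970 on the minus strand of chromosome 2 (GRCm39).

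Leaving out any one sample kept *Prpf18* lower, at -1.81 to -2.06, with adjusted p-values of 0.0601 to 0.181. The lowest p-value of that range came without UT 1 and the highest without LPS 1. On the protein-coding scale it reached -2.32 and was called. Over all 17 alternatives its adjusted p ran from 0.0096 to 0.181.

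Upward differences in this group included those of *Prpf4* and *Prpf3*. *Prpf38a*, given below, had a larger log2 fold change (1.40) than *Prpf3* (1.00), and the groups overlapped for *Prpf31*, a U4 snRNP protein. *Prpf4*, a U4/U6 snRNP protein, had 0.401, 1.41 and 0.396 in UT and 4.19, 2.63 and 4.52 in LPS samples, a log2 fold change of 1.49 ± 0.38 (SE) with an unadjusted p of 0.00725 and an adjusted p of 0.111 in limma. Its partner in the U4/U6 snRNP, *Prpf3*, was also separate, at 1.89, 0.629 and 0.741 and 4.05, 2.11 and 3.16, with an adjusted p of 0.259.

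The central tri-snRNP proteins were not resolved. *Prpf8*, the protein at the catalytic core, lay at 13.6, 2.02 and 3.63 in UT and 9.77, 8.07 and 10.6 in LPS samples, with UT 1 above all LPS samples. *Prpf6*, a bridge between U5 and U4/U6, was at 5.26, 3.73 and 9.51 and 8.10, 8.10 and 8.30, with LPS samples nearly equal and UT samples on both sides of them. *Prpf31*, a U4 snRNP protein, varied 26.5-fold among UT samples (1.16, 0.257 and 6.82) and was at 4.71, 2.11 and 3.73 after LPS. *Prpf38a* and *Prpf38b* had differences of 1.40 ± 0.60 and 1.09 ± 0.73 (SE). *Prpf38a* was at 1.23, 9.33 and 2.34 in UT and 10.8, 9.30 and 10.7 in LPS samples. Its UT 2 alone lay above the lowest LPS sample, and without UT 2 the gene was called higher. *Prpf38b* was at 30.0, 3.78 and 5.22 in UT and 21.3, 19.5 and 18.3 in LPS samples, with UT 1 the highest of all 6. *Prpf39*, of the U1 snRNP in yeast, was at 4.21, 3.46 and 17.9 and 4.78, 4.84 and 4.50, with UT 3 alone above the LPS samples. *Prpf4b*, a kinase of the tri-snRNP, had an interval of -1.58 to 0.95.

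Splicing genes outside these prefixes also lay mostly above 0. Of 170 genes listed (other snRNP proteins, helicases, LSm proteins, exon junction and regulatory factors), 117 were tested. The log2 fold change was above 0 for 89 and below 0 for 28, with a median of 0.54. Of the 5894 protein-coding genes with a mean of 1 or more, 3824 lay above 0. By limma, 4 (3.42%) were called higher and 0 lower, beside the 2.4% and 0.366% of protein-coding genes. Of protein-coding genes with a mean of 1 or more, 4.89% were called higher. At an unadjusted p under 0.05, 22 (18.8%) were higher and 4 (3.42%) lower, beside 14.1% and 5.17% of protein-coding genes and 20.5% and 7.48% of those with a mean of 1 or more. At an adjusted p under 0.05, 1 was higher and 0 lower. The groups were separate upward for 30 (25.6%) and downward for 4 (3.42%), against 24.6% and 9.89% of protein-coding genes with a mean of 1 or more. Of the 117 genes, 107 had such a mean. Among these 107, 3.74% were called higher, and 26.2% separated upward and 2.80% downward. At an unadjusted p under 0.05 in limma, 18.7% of them were higher and 2.80% lower.

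The called genes included LSm proteins, which form the ring of the U6 snRNP and resemble the Sm proteins. *Lsm3* stood at 0.943, 0.736 and 0.747 in UT and 10.6, 7.53 and 8.32 in LPS samples, a log2 fold change of 2.43 ± 0.29 (SE) with an adjusted p of 0.0219 in limma. *Lsm6* went from 0.873, 0.375 and 1.38 to 10.2, 2.96 and 8.51, with 2.04 ± 0.50 (SE) and an adjusted p of 0.106 in limma. The other LSm genes tested that can be set beside them, *Lsm4*, *Lsm5*, *Lsm7* and *Lsm8*, had log2 differences of -0.27 ± 0.56, 0.47 ± 0.46, 0.90 ± 0.52 and 1.26 ± 0.68 (SE) and were not called; they were chosen after their values were seen. The other called genes were *Ddx39a*, an RNA helicase of mRNA export (0.336, 0.172 and 0.389 against 5.79, 2.67 and 7.11), and *Cwc15*, of the PRP19-associated complex (8.95, 2.01 and 11.3 against 32.8, 32.3 and 27.3). Their adjusted p-values were 0.0570 and 0.127 in limma.

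Below the called genes, *Dhx8*, the helicase that releases spliced mRNA, had a log2 fold change of 1.94 ± 0.50 (SE), and *Magoh*, of the exon junction complex, of 1.92 ± 1.25, with UT 1 at 39.4 above all LPS samples. On the lower side, *Celf2*, a regulator of alternative splicing, had 4.88, 7.08 and 5.47 in UT and 1.09, 1.05 and 1.31 in LPS samples. *Rbm5*, which regulates splice site pairing, had 18.1, 26.4 and 20.5 in UT and 5.43, 7.96 and 5.96 in LPS samples. In both genes all LPS samples lay below all UT samples, at log2 fold changes of -1.65 ± 0.29 and -1.60 ± 0.30 (SE) and adjusted p-values of 0.0535 and 0.0624 in limma. *Luc7l3*, of the U1-associated LUC7 family, and *Pdcd7*, of the minor spliceosome, had differences of -1.16 ± 0.48 and -1.14 ± 0.84 (SE).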

How the data were processed

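Expression of cGAS-/- neutrophils was compared between 3 LPS and 3 UT samples, grouped by their titles and treatment labels. Per the labels, reads were handled with fastp, STAR and kallisto, with GRCm39 and mm10 as builds, and the study's methods add limma-voom. The deposited table is named as normalized counts, but its values behave as TPM. From their digits it appears that the authors took the mean of kallisto's TPM within each gene and scaled every sample by a constant, which no source states. Depth is therefore unknown and no count model was used. In UT 3, 69.5% of 1374 values with over 12 digits ended after multiplication by a whole number from 2 to 60, as means over transcripts would, against 0.033% of 6000 in UT 1. Whether counting used strand is not given in the sources used here, so reads of a gene and an antisense partner cannot be told apart.

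Of 38739 genes, 15690 at 0 in all samples were dropped. The other 23049 were fitted with limma 3.58.1 in R 4.3.3 (lmFit and trended eBayes, two-sided, no covariates) on log2(value + 1), with Benjamini-Hochberg adjustment over all of them. The fit was tested on simulated data. Symbols were matched to GENCODE M39 by name (35599) or identifier (983). Near-identical stretches (95% identity over 150 bases) were found with blastn 2.17.0. Promoters came from RefSeq (GRCm38.p6).

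The members, the list of other splicing genes and the markers were chosen with earlier results of these data known. Named were, per prefix, every member called, the 2 with the largest change in each direction and the 2 with the highest mean; of the other splicing genes, the 6 highest and 4 lowest fold changes at a mean of 1 or more. Further members are named to complete a complex or a count and were chosen after their values were seen. The values of 1 *Prpf* member are not reported here. Alternatives were other pseudocounts and filters, quantile, median and protein-coding scaling, eBayes without a trend, a replicate block, each sample left out, and members without near-identical genes; adding copies was chosen after seeing the data.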

Additional observations from a re-analysis of the deposited data

How the results depend on the processing

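With 3 samples per group and unknown depth, the median 95% interval of a member's log2 fold change was ± 1.15. The main counts were 3 members called higher, 0 called lower, 1 in each direction by adjusted p under 0.05, and a median log2 fold change of 0.66. The number called higher was 1 without the trend, with genes at 0 kept, on the protein-coding scale, with a pseudocount of 5, with copies added, and among the 31 members without a same-strand near-identical gene, and 0 among the 13 members without one on either strand. The number called lower was 1 with a pseudocount of 0.1 and 2 on the protein-coding scale. At an adjusted p under 0.05, 0 members were higher with genes at 0 kept, on the protein-coding scale, with a pseudocount of 5, with copies added (weighted or not) and among members without near-identical genes (by either rule), and 3 were with a mean of 1 or more. The number lower was 2 without the trend and with a mean of 1 or more, and 0 with median centring. The median was 0.27 on the protein-coding scale and 0.38 with a pseudocount of 5. Leaving out each sample in turn, 1 to 3 members were called higher and 0 to 2 lower, 0 to 1 were higher and 0 lower by adjusted p under 0.05, and the median ran from 0.36 (without UT 2) to 0.80 (without UT 1). The causes were not tested.

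Samples with the same number shared deviations only weakly (correlations of 0.094, 0.20 and 0.083), although each sample correlated best with its own number. Replicates ranked alike in both groups for the neutrophil, B cell and erythroid marker sums, but not for the other marker lists. The erythroid sums were 356, 21.5 and 5629 in UT and 572, 165 and 4651 in LPS samples. Whether the numbers mark shared mice or batches is not stated, and the main fit did not take them as pairs. With the replicate block, 3 members were called higher (*Snrpd2*, *Snrpf* and *Hnrnpab*) and 0 lower, and by adjusted p under 0.05 there were 0 higher and 0 lower.

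Among the named genes, 553 of 626 recomputed fold changes kept direction and call, 46 lost and 18 gained a call, and 9 changed sign. Those were *Hnrnpl* without UT 2 (0.17), *Hnrnpa0* on the protein-coding scale (-0.031) and without UT 1 (-1.07), *Sf3a3* on the protein-coding scale (-0.18) and without UT 2 (-0.16), *Sf3b1* on the protein-coding scale (-0.41), without LPS 2 (-0.017) and without UT 2 (-0.016), and *Prpf39* without UT 3 (0.24). With each sample left out in turn, these genes ranged from -0.48 to 0.17 (*Hnrnpl*), -1.07 to 1.33 (*Hnrnpa0*), -0.16 to 0.65 (*Sf3a3*), -0.017 to 0.18 (*Sf3b1*) and -0.80 to 0.24 (*Prpf39*). The sums of calls over all genes were 389 higher and 301 lower; they were 856 and 493 with a pseudocount of 0.1, 129 and 168 with a pseudocount of 5, and 216 and 519 on the protein-coding scale.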
